A study of Homo sapiens with 6 samples.

Results

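The 40 genes described here belong to the programme of epithelial-mesenchymal transition (EMT) and invasion. They were chosen by name, from knowledge of the pathway, but with earlier results of these data known. Every MeTDiff peak inside the GRCh38 span of a member and on its strand was taken, with every MACS2 summit inside the span. The members stand among 20050 protein-coding genes of the RefSeq gene table, and all 40 were found there. The study precipitated RNA fragments with an antibody against N1-methylguanosine (m1G) from polyA+ RNA of PANC-1, an established human cell line grown from a pancreatic ductal adenocarcinoma. There were 2 m1G precipitates and 1 input library from cells transfected with siRNA against TRMT5, the enzyme that places m1G beside the anticodon of tRNAs, in which the depletion lasted 4 days. Control cells, labelled WT control, gave likewise 2 m1G precipitates and 1 input library. All libraries are labelled experiment 1, and the precipitates of each group are labelled replicates 1 and 2. All 6 libraries come from this single line, and nothing in the labels ties the paired precipitates to separate cultures.

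EMT is the passage of epithelial cells, which are held together by cadherin junctions and claudin tight junctions, to a motile state with a matrix of collagens and fibronectin. Transcription factors of the ZEB, SNAI and TWIST families repress the junction genes, whereas GRHL2 and the splicing regulator ESRP1 maintain the epithelial state. Invasion adds proteases, among them matrix metalloproteinases and urokinase, whose activity is held by inhibitors of the TIMP family.

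The files were 2 peak lists of the whole series. MeTDiff gave stranded peaks with a fold enrichment of precipitate over input and a false discovery rate (FDR), and MACS2 gave summits of 1 bp with a score, which is −log10 of either a p-value or a q-value. Neither list separates TRMT5-depleted from control cells, so that comparison was not analysed here, and all values are the authors' own, without replicate error. No read counts came with the lists. Library depth is therefore unknown, and a gene without a peak cannot be told apart from a gene with too little RNA in the cells. Among the ductal markers, the keratin genes KRT8, KRT18 and KRT19 and the transcription factor gene SOX9, which is also a member, had both a MeTDiff peak and a summit. The mucin gene MUC1 had a MeTDiff peak alone, and KRT7 had neither. Of the acinar, islet, endothelial and fibroblast markers, 4 of each, none had a peak or a summit, and of 4 leukocyte markers CD68 alone had a peak.

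Of the 40 members, 21 (52.5%) had a MeTDiff peak on their own strand, where 36.6% of all protein-coding genes did. Strand was taken from the peaks themselves for 8 of these 21, and for 1287 of the 7335 protein-coding genes with a peak. With peaks on either strand the member count was also 21. A MACS2 summit lay in 12 members (30.0%), against 18.0% of all protein-coding genes, and each of these 12 also had a MeTDiff peak. Both kinds of peak occurred together in 16.7% of all protein-coding genes. Since the members were chosen with earlier results of these data known, these shares do not test whether the programme is enriched. The members were not evenly covered. A MeTDiff peak was listed in 8 of 9 epithelial genes. It was listed in 7 of 13 matrix and surface genes, in 5 of 9 proteases and inhibitors, and in 1 of 9 regulators of transcription and splicing. The proteases and inhibitors had a summit in the same 5 genes, while only 2 of the 9 epithelial genes had one. These differences between groups were not tested.

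**Figure D1:**
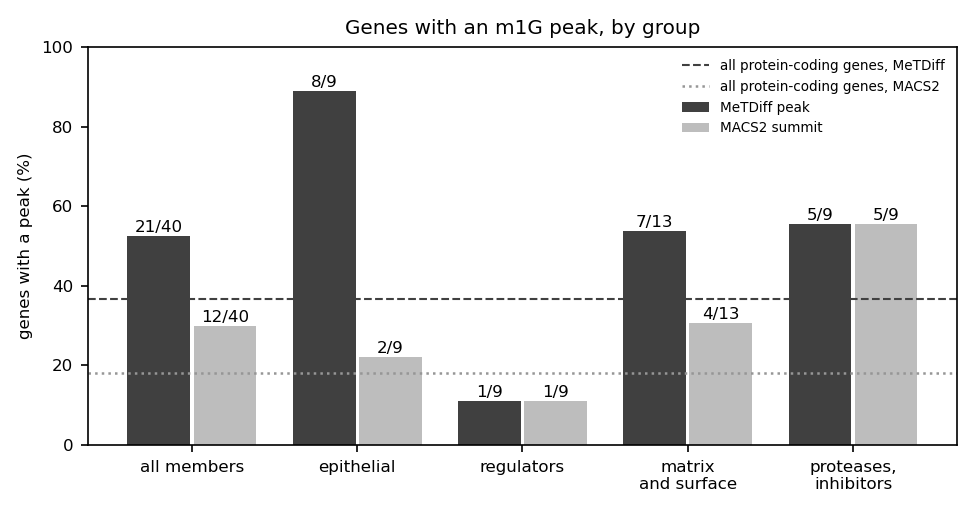
Share of genes with a MeTDiff peak (dark bars) or a MACS2 summit (light bars), in percent, for all 40 members and the 4 groups, with the count above each bar. The dashed and dotted lines give the shares of all protein-coding genes, 36.6% and 18.0%. The epithelial bar reaches 8 of 9 genes in the MeTDiff list, and the regulators stand at 1 of 9 in each list.

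Together the 21 genes held 66 MeTDiff peaks with a median fold of 3.60, from 1.08 to 12.3, where the whole list of 18431 peaks had a median of 4.24. Of the 66, 13 lay above the upper quartile of the list (6.91) and 26 below its lower quartile (2.75). The 20 summits had a median score of 22.1, from 7.55 to 47.6, beside 16.4 for all 6264 summits, and 9 of them exceeded the upper quartile of 25.6. Counted peak by peak, the members' peaks thus lay low in the list by fold, while their summits lay high by score. Genes with many peaks weigh most in this count. Of the 66 peaks, AHNAK held 11 and COL1A1 held 9, and both are matrix and surface genes. By group, the median fold was 5.00 for proteases and inhibitors, 4.29 for the regulator SOX9, 3.88 for epithelial genes and 3.31 for matrix and surface genes. The median score was 31.4 for the 5 summits of proteases and inhibitors, 24.3 for the 9 of matrix and surface genes and 18.3 for the 5 of epithelial genes. SDC1 alone held 4 of the 5 epithelial summits.

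**Figure D2:**
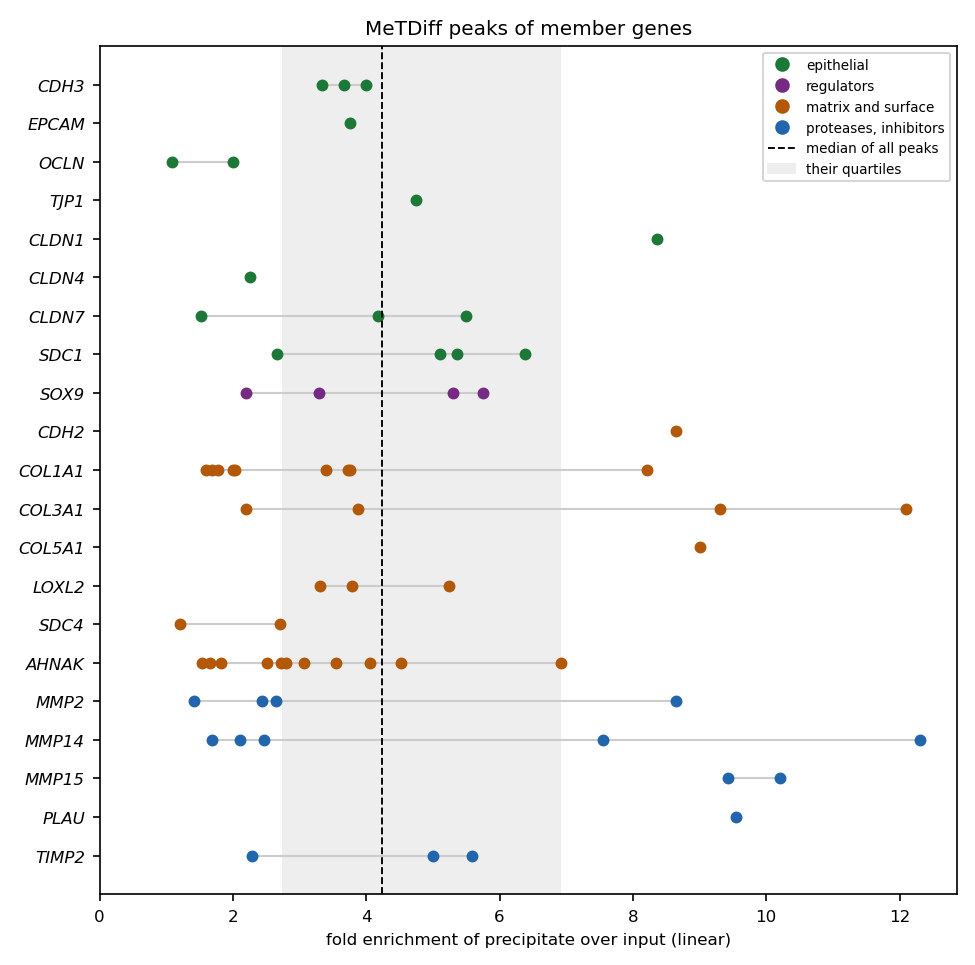
Fold enrichment of each MeTDiff peak (x axis, linear) in the 21 members that had 1, coloured by group. The dashed line is the median of all peaks (4.24) and the grey band runs between their quartiles, 2.75 and 6.91. The largest folds belong to MMP14 (12.3), COL3A1 (12.1) and MMP15 (10.2), and OCLN, CLDN4 and SDC4 lie wholly below the band.

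Among the epithelial genes, the strongest enrichment was in CLDN1, which encodes the tight junction protein claudin-1, with a fold of 8.36 in its only peak (chromosome 3, 190312886 to 190312985, FDR 0.00129). CLDN4 also had 1 peak, of 2.25-fold (chromosome 7, 73831885 to 73831985, FDR 0.0105). CLDN7 had 3, with folds of 4.17, 1.52 and 5.50 in the direction of transcription. Their FDRs were 0.0347, the highest of all member peaks, 0.0234 and 0.00138. The peak of 1.52-fold was listed under another Ensembl ID and overlapped the peak of 5.50-fold, which held the only claudin summit, with a score of 27.7 (chromosome 17, 7261085). OCLN, which encodes the tight junction protein occludin, stood at the other end with folds of 2.00 and 1.08. The last of these was exceeded by all but 0.0163% of the peaks in the list. TJP1, the scaffold protein ZO-1 of the same junctions, had 1 peak of 4.75-fold over 250 bases (chromosome 15, 29822187 to 29822436, FDR 0.000105).

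The epithelial cell adhesion molecule gene EPCAM had 1 peak of 3.75-fold (chromosome 2, 47373799 to 47373897, FDR 0.0209). CDH3, which encodes P-cadherin, had 3 peaks of 3.67-, 4.00- and 3.33-fold, and the peak nearest its 5′ end had its midpoint 365 bp from that end. CDH1, the E-cadherin gene, was the only epithelial member with no peak in either list. SDC1, which encodes the heparan sulfate proteoglycan syndecan-1, had the most peaks of the epithelial genes. Its 4 peaks had folds of 2.66, 5.10, 5.36 and 6.38, increasing towards the 3′ end, and all lay in the last part of the gene, between 86.6% and 96.1% of its span. Its 4 summits had scores of 18.3, 17.6, 14.4 and 20.0 in the same order, each within 78 bp of a block of a different peak.

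At 3 of these junction genes a peak lay at or near an annotated transcription start, and the bases at its edge are shown because they place the enriched fragment against that start. In each line, from RefSeq (GRCh38.p14), capitals mark bases inside the MeTDiff peak, read 5′ to 3′ on the strand of the gene.
OCLN: ccgagggaggagGCCGACACACCACACCTA
TJP1: gccggctgagccAGCGGACGCCGCGTTCCT
CLDN7: GGGGCGTGACCCTGGTGCtcaggtttcttc
The OCLN line is the 5′ edge of a peak of 3.0-fold (chr5:69492529-69492558, plus strand, FDR 0.00955). That peak began 6 bp before the annotated start at 69492547 and, since it reached out of the gene span, was not counted among the 66. The TJP1 line is the 5′ edge of its only peak (chr15:29822419-29822448, minus strand). This edge lay 32 bp past an internal start at 29822468, which is 1 of 4 starts of the gene in the table, and 146613 bp past the start at the end of the gene span. The CLDN7 line is the 3′ edge of its peak of 4.17-fold (chr17:7262658-7262687, minus strand, FDR 0.0347). The peak ended 192 bp before an internal start at 7262478, and its 5′ edge lay 393 bp past the outer start at 7263213. Guanine made up 27.0% of the 100 bases of the OCLN peak and 33.9% of the 59 bases of the CLDN7 peak that could be read. Over 35116 annotated starts it made up 31.3% of the first 50 transcribed bases. These places are unlike. The OCLN peak ran from 6 bp before the start at 69492547 to 93 bp past it, and the CLDN7 bases lie before the internal start. In the TJP1 peak only 18 bases could be read, with 6 guanines.

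Of the 9 regulators, SOX9, a transcription factor of ductal and progenitor cells, was the only gene with a peak. It had 4 MeTDiff peaks with folds of 3.29, 2.19, 5.30 and 5.75 in the direction of transcription (chromosome 17, 72121070 to 72123929). The deposited p-value was the same for all 4, 7.4e-05, with an FDR of 0.000355. Its summit had a score of 7.55, the lowest among the members, and lay 46 bp beyond the nearest peak. ZEB1, ZEB2, SNAI1, SNAI2, TWIST1 and FOXC2, which drive the mesenchymal state, had no peak in either list, and neither did GRHL2 and ESRP1. No row of either list lay within 1000 bp of the spans of these 8 genes.

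Fibrillar collagens carried the largest share of peaks among the matrix genes. COL1A1, which encodes a chain of type I collagen, had 9 MeTDiff peaks, of which 8 had folds from 1.60 to 3.75 and the remaining peak had 8.21 (chromosome 17, 50189182 to 50189532, FDR 0.000389). Its only summit, with a score of 11.3, lay 8 bp from that strongest peak. COL3A1, the type III collagen gene, had 4 peaks with folds of 2.19, 3.88, 9.30 and 12.1 in the direction of transcription. The fold thus grew from peak to peak towards the 3′ end, and the last peak, of 5 blocks, was the second strongest of all members (chromosome 2, 189004068 to 189006347, FDR 8.5e-05). Its summits scored 40.5, 13.3 and 45.8. COL5A1, of type V collagen, had 1 peak of 9.0-fold and no summit (chromosome 9, 134815948 to 134817783, FDR 0.0191). None of the 4 fibroblast markers had a peak, among them COL1A2, whose product joins that of COL1A1 in type I collagen.

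The collagen peaks were spliced more finely than the rest. A spliced peak is listed as blocks, and the blocks between its outermost ones are whole exons if the peak follows a transcript. The triple helix of a fibrillar collagen is built from repeats of Gly-X-Y, and its exons are known to be made of units of 9 bases that code for 1 repeat. In the collagen members all 15 inner blocks had a length that is a multiple of 9: 8 of them measured 54 bp, 4 measured 108 bp, and the others 99 or 45 bp. In all other peaks of the list 16.7% of 1854 inner blocks were multiples of 9, and 2.75% measured 54 bp. The inner blocks of COL1A1, COL3A1 and COL5A1 thus had lengths known from helix-coding exons. The blocks were not set against an exon annotation here. Over all members 27 of 66 peaks were spliced (40.9%, 95% Wilson interval 29.9 to 53.0), beside 33.1% of the whole list (interval 32.4 to 33.7).

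LOXL2, a lysyl oxidase that crosslinks collagen, had 3 peaks with folds of 3.79, 5.24 and 3.31 in the direction of transcription. All were spliced, and the middle peak (chromosome 8, 23316944 to 23321796, FDR 1.1e-05) held a summit of score 36.2 in a gap between its blocks. CDH2, which encodes N-cadherin, the cadherin that replaces E-cadherin in EMT, had 1 peak of 8.64-fold and no summit (chromosome 18, 28003148 to 28005926, FDR 0.00141). N-cadherin and P-cadherin were thus listed with a peak and E-cadherin was not. SDC4, of syndecan-4, had 2 weak peaks of 1.21- and 2.71-fold, and the peak of 2.71-fold had its midpoint 246 bp from the 3′ end of the gene.

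AHNAK, a giant scaffold protein of the cell cortex, had the most peaks of the members, 11, and was the only member among the 88 protein-coding genes with 10 or more. All of its peaks fell between 10.3% and 25.8% of the gene span, and 10 of the 11 were a single block, in a gene known to code most of its protein in a very large exon. Their folds ran from 1.53 to 6.92, and the strongest (chromosome 11, 62518297 to 62518646, FDR 0.000186) contained a summit of score 24.3. The highest AHNAK summit, with a score of 30.9, lay 15442 bp away, in a gap of a spliced peak of 4.52-fold. The remaining matrix and surface genes had no peak inside their spans in either list. These were FN1 (fibronectin), SPARC, THBS1 (thrombospondin-1), TNC (tenascin-C), CD44 (the hyaluronan receptor) and S100A4. Near CD44 a peak of 2.25-fold lay 201 bp before its span on the same strand (chromosome 11, 35138870 to 35138970, FDR 0.0229).

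**Figure D3:**
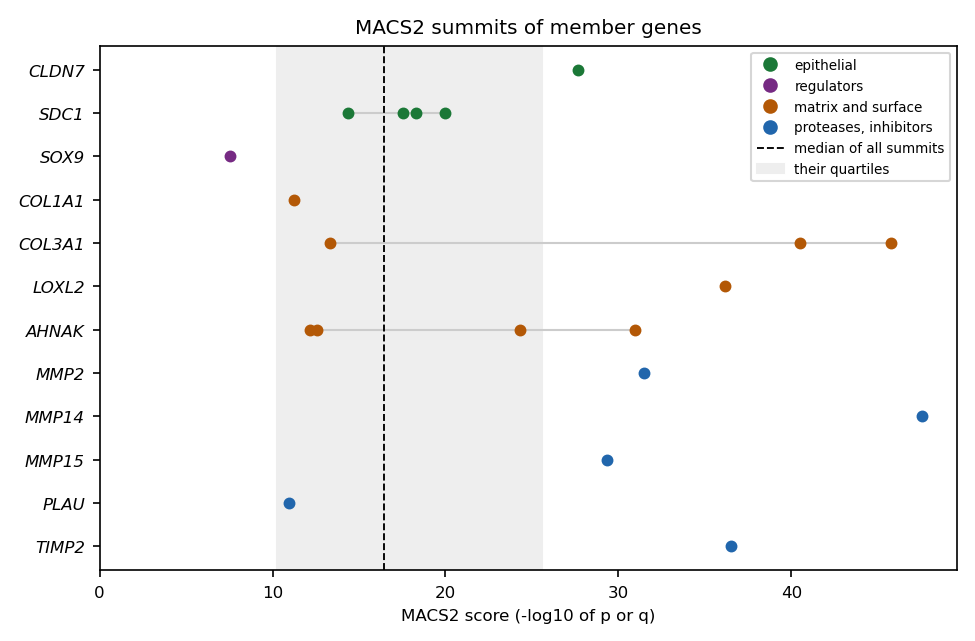
MACS2 score of each summit (x axis, −log10 scale) in the 12 members that had 1, coloured by group. The dashed line is the median of all summits (16.4) and the grey band runs between their quartiles. MMP14 (47.6) and a summit of COL3A1 (45.8) are the highest, and SOX9 (7.55) is the lowest.

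Among the proteases, MMP14, the membrane-bound metalloproteinase that activates pro-MMP2, had the largest fold and the highest score of all members. Its 5 peaks had folds of 12.3, 2.46, 2.11, 1.69 and 7.55 in the direction of transcription, so the outermost peaks were the strong ones (chromosome 14, 22842656 to 22843393, FDR 0.000389, and 22847294 to 22847443, FDR 0.000813). The summit, with a score of 47.6, lay at 22843194, in the gap between the 2 blocks of the strongest peak. MMP15, a membrane-bound relative, had 1 peak at each end of the gene, of 10.2-fold with its midpoint 448 bp from the 5′ end and 9.43-fold with its midpoint 498 bp from the 3′ end. Its summit, of score 29.3, lay inside the peak at the 5′ end.

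MMP2, the secreted gelatinase that MMP14 activates, had 4 peaks with folds of 8.64, 2.65, 1.41 and 2.44. The strongest was nearest the 5′ end and contained the summit, of score 31.4 (chromosome 16, 55479294 to 55479492). The last 2 overlapped each other, and the peak of 2.44-fold belonged to another Ensembl ID. The peaks of 8.64-, 2.65- and 1.41-fold had the lowest FDRs of all member peaks, 3.6e-10, 3.5e-10 and 3.5e-10, whereas the peak of 2.44-fold had 0.000174. The peaks with these lowest FDRs carried the same deposited p-value, so their FDRs do not rate each peak on its own. In 9 of the 14 members with 2 or more peaks, at least 2 peaks shared a p-value. PLAU, the urokinase gene, had 1 peak of 9.55-fold with a summit of score 10.9 inside it (chromosome 10, 73916547 to 73916946, FDR 7.6e-05). A peak of 6.67-fold on the opposite strand overlapped it and reached 5184 bp beyond the gene, and summits carry no strand, so the summit cannot be given to either strand. Another peak on the opposite strand lay wholly inside the PLAU span, with a fold of 4.50, and was likewise not counted (chromosome 10, 73911940 to 73912039, FDR 0.001). PLAUR, the receptor of urokinase, had no peak in either list, and neither had MMP9.

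Of the inhibitors, TIMP2, which also takes part in the activation of pro-MMP2 by MMP14, was the only member with a peak. Its 3 peaks had folds of 5.00, 5.58 and 2.29 in the direction of transcription. The peak of 5.00-fold lay at the 5′ end, with its midpoint 225 bp from it, and the others lay beyond 96.0% of the span. The summit, of score 36.5, was 35 bp from a block of the peak of 5.58-fold (chromosome 17, 78855768 to 78856017, FDR 0.000813). MMP14, MMP2 and TIMP2, whose products form an activation complex at the cell surface, thus each had peaks in both lists. TIMP1 and TIMP3 had none.

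**Figure D4:**
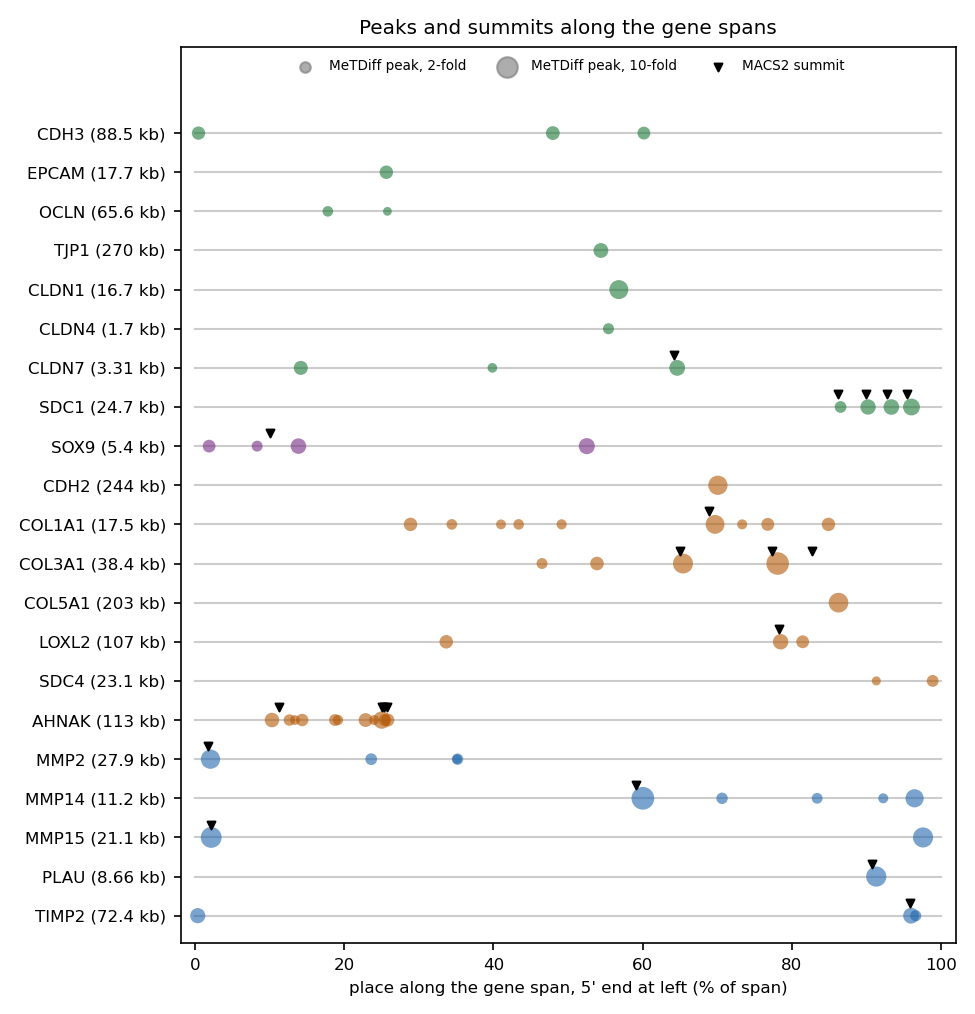
Place of each MeTDiff peak (circles, area growing with fold) and MACS2 summit (black triangles) along the gene span, in percent from the 5′ end, for the 21 members with a peak. Peaks of SDC1 gather beyond 86.6% of the span and those of AHNAK between 10.3% and 25.8%, whereas MMP15 has 1 peak at each end.

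Most member peaks lay away from the ends of the gene span. A peak beside an internal start counted as interior, such as that of TJP1, with its edge 32 bp past a start. The OCLN peak that reached out of the span at its start was left out. Of the 66, 6 had their midpoint within 500 bp of the 5′ end (9.09%, 95% Wilson interval 4.23 to 18.4) and 3 within 500 bp of the 3′ end (4.55%, interval 1.56 to 12.5). Over all 16846 peaks assigned to protein-coding genes these shares were 16.2% and 6.80%. Both lie inside the members' intervals, so a difference in place was not detectable with 66 peaks. The intervals treat peaks of the same gene as independent, and all peaks of AHNAK and COL1A1 were interior. The 5′ peaks belonged to CDH3, CLDN7, SOX9 (2), MMP15 and TIMP2, and the 3′ peaks to SDC4, MMP14 and MMP15.

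The lists met at the same sites in the members, but seldom at the same base. Of the 20 summits, 7 lay inside a block of a MeTDiff peak (35.0%, 95% Wilson interval 18.1 to 56.7), 6 in a gap between blocks of a spliced peak and 7 outside but at most 78 bp away. All 20 were within 100 bp of a block, where 79.1% of the 5668 summits in protein-coding spans were. The share inside a block was 37.8% over those 5668 summits. Of the 13 member summits off a block, 11 lay on its 5′ side, with TIMP2 and SOX9 as the exceptions, and of all 2336 summits off a block but within 100 bp of it 87.5% did (interval 86.1 to 88.8). The offset to the 5′ side is thus a property of the whole list, shared by the members.

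**Figure D5:**
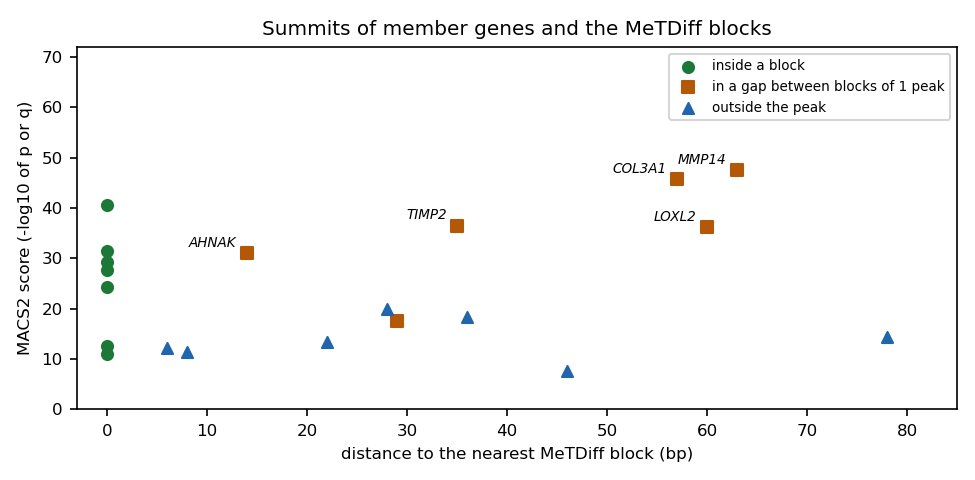
Distance of each of the 20 member summits to the nearest MeTDiff block (x axis, bp) against its MACS2 score (y axis). The 5 summits in gaps with scores from 30.9 to 47.6 are named by gene, and all summits outside a peak score 20.0 or less.

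High scores occurred off the blocks too. The summits inside a block scored from 10.9 to 40.5 and those off a block from 7.55 to 47.6, and the high ones off a block were in gaps, in MMP14, COL3A1, TIMP2, LOXL2 and AHNAK. In 4 of the 12 genes with both kinds of peak, CLDN7, MMP2, MMP15 and PLAU, the highest summit lay inside a block of the peak of largest fold. In COL3A1, LOXL2, MMP14 and TIMP2 it lay in a gap of that peak, 35 to 63 bp from a block. In SDC1 and COL1A1 it lay outside that peak, by 28 and 8 bp, and in SOX9 and AHNAK it belonged to another peak. The 9 members with a MeTDiff peak but no summit had a largest fold between 2.0 and 9.0, with a median of 4.00, and at most 3 peaks. The 12 genes in both lists had a largest fold between 5.24 and 12.3, with a median of 7.57. They also had more peaks, a median of 4 against 1, and the largest of more values tends to be larger.

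A further list of 58 genes of the same programme, which holds no member, had a MeTDiff peak in 25 cases (43.1%) and a summit in 15 (25.9%), beside the 36.6% and 18.0% of all protein-coding genes. This list, too, was chosen with earlier results of these data known. Its 78 peaks had a median fold of 3.51. As among the members, a MeTDiff peak was most frequent in junction genes, with 10 of 14. Proteases followed with 8 of 18, matrix genes with 5 of 17 and regulators with 2 of 9. The order by summits did not repeat. Among the members, proteases and inhibitors came first with a summit in 5 of 9, and epithelial genes had 2 of 9. In the further list a summit lay in 5 of 14 junction genes, 4 of 17 matrix genes, 4 of 18 proteases and 2 of 9 regulators. The largest folds were in TCF3, an E-box transcription factor that can repress E-cadherin, with 23.5, in COL6A1, of type VI collagen, with 18.0, and in the metalloproteinase gene ADAM15, with 15.8. The highest scores were in the cathepsin D gene CTSD, with 45.6, in VIM (vimentin), with 43.4, and in BSG (basigin, an inducer of metalloproteinases), with 40.6.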

How the data were processed

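The study made 6 libraries of PANC-1 cells, but the 2 deposited peak lists map no value to a library. STAR 2.7.1 and MACS2 2.2.5 on GRCh38 are named per the submitters' processing notes. Settings and pooling: not given in the sources used here. The deposited MACS2 list gives −log10 of a p-value or of a q-value for each summit, with no statement of which. The deposited MeTDiff list gives a p-value, the log10 of the FDR and a ratio (the fold enrichment) per peak, as read from column order and values.

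Genes were placed with a RefSeq table (GRCh38.p14). A MeTDiff peak belonged to a gene if it lay wholly inside its span and on its strand, and a summit if it lay inside the span. Strand came from RefSeq start sites or, for 8 members with a peak and none in the table, from the peaks. A peak's place is its middle covered base. Intervals are 95% Wilson intervals and cover counting error only. They treat peaks or summits of the same gene as independent. No test was run, since no value belongs to a sample. Members and lists were chosen with earlier results of these data known, all members are named, and other genes are named for the 3 largest folds or highest scores. Assignment was tested on simulated data of 3000 single-block peaks in genes with an annotated start. All came out as made, and those made on the wrong strand were left out as intended. Spliced peaks and strands taken from the peaks were not simulated. Python 3.11.15, pandas 2.3.3 and scipy 1.17.1 were used. 1 marker gene is not reported here.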

Additional observations from a re-analysis of the deposited data

How the results depend on the processing

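No paired analysis was possible because the peak lists carry no libraries, and for the same reason no replicate could be left out. Of 37 values under 11 alternatives, 33 stayed within 1.5 times the reported count or inside the 95% binomial interval of the reported share or median. With only summits at or above the median score of the list, 13 of the 20 summits were left, and 9 members held them. The share of summits inside a MeTDiff peak was 65.0% when gaps between blocks counted as inside and 100% when 100 bp around a block were added. The share of peaks within reach of a gene end was 4.55% for 250 bp, against 13.6% for 500 bp. Members with a MeTDiff peak numbered 18 at an FDR of 0.01 and 19 without peaks in the span of another gene. Peaks that only overlap a span, and peaks of 1 Ensembl ID per gene, were alternatives chosen after seeing the data. Missing depth and expression limit every count of genes.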
